A study of Homo sapiens with 9 samples.

Results

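AP-1 and EGR immediate early factors are transcription factors. Several of their genes, FOS and EGR1 among them, are switched on within minutes of a growth or stress signal. The 10 genes described here are the Fos family (FOS, FOSB, FOSL1, FOSL2), the Jun family (JUN, JUNB, JUND) and the zinc-finger factors EGR1, EGR2 and EGR3, chosen by gene symbol. All 10 were found among the 36225 genes of the deposited table and all 10 passed the filter on low counts, as did 21492 genes in all. RNA came from RBE cells, a human cell line established from an intrahepatic cholangiocarcinoma, which arises from bile ducts within the liver. The cells carried lentivirus with a short hairpin RNA against IDH1 (shIDH1), a short hairpin RNA against JOSD2 (shJOSD2) or a scramble sequence (control). Each of these 3 groups had 3 libraries of poly(A) RNA. IDH1 is the cytosolic NADP-dependent isocitrate dehydrogenase, JOSD2 is a Josephin-domain deubiquitinase, and the series title names mutant IDH1 and the coactivators YAP and TAZ. All groups are of 1 cell line that was infected with lentivirus, the labels name 1 hairpin per gene, and whether the libraries within a group stem from separate infections is not stated. The p-values therefore reflect only how far these libraries vary, and part or all of that variation may be technical.

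AP-1 is a dimer of basic leucine zipper proteins. Jun proteins pair with each other or with a Fos protein, Fos proteins need a Jun partner, and the dimers bind AP-1 sites in enhancers and promoters. Growth factor receptors and the ERK kinases activate ternary complex factors bound beside SRF at CArG boxes, which turns on FOS and EGR1, while the JNK kinases phosphorylate JUN, which acts on its own promoter. FOSL1 (FRA-1) and FOSL2 (FRA-2) lack the strong activation domain of FOS, and FOSL1 is the Fos protein that accumulates under lasting ERK activity in many carcinoma cells. EGR proteins bind GC-rich sites and are held back by the corepressors NAB1 and NAB2. In the liver several of these genes are known as early responders to growth factors and injury.

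The promoters of EGR1 and JUN are shown as examples of matches to the sites of SRF and of AP-1, since EGR1 holds 2 CArG boxes and JUN an AP-1 variant; EGR2 and FOSL2 hold others. They are the 250 bases upstream of the RefSeq start in GRCh38.p14, read 5′ to 3′ on the strand of the gene, at chr5:138465229-138465478 (plus strand) for EGR1 and chr1:58784048-58784297 (minus strand) for JUN. Capitals mark the motif matches.
EGR1: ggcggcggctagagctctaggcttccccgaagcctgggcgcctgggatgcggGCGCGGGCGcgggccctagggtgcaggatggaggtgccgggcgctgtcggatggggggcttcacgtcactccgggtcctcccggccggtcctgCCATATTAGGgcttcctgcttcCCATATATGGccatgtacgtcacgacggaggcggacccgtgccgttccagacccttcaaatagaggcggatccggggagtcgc
JUN: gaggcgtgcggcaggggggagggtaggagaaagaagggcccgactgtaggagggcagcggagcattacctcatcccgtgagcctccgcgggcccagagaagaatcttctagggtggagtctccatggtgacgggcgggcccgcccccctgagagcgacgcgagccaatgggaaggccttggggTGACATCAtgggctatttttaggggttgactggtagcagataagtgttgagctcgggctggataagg
Read from the left, the capitals in EGR1 are 1 match to the EGR site GCGNGGGCG and 2 CArG boxes, which begin 198, 105 and 83 bases upstream of the start. The capitals in JUN are the AP-1 variant TGACATCA, which begins 67 bases upstream. Both strands of each promoter were searched, from 250 bases before to 50 after the start, and no 2 of these matches overlapped. A CArG box lay in 1.29% of 35116 promoters, the EGR site in 9.43% and TGACATCA in 2.61%. RefSeq promoters were matched for 8 of the 10 genes, in 10 windows, and FOSL1 and EGR3 had none. The windows of FOS, FOSB and JUNB held no match to these motifs. Sites farther than 250 bases upstream were not searched, so this does not show that these genes lack them. EGR2 held a CArG box that began 71 bases upstream of one of its starts and an EGR site just inside another. FOSL2 held the AP-1 site TGANTCA just inside its transcript (7.71% of promoters), and JUND held the cyclic AMP response element TGACGTCA 200 bases upstream (1.85% of promoters). A match describes these letters and does not show binding.

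The target of each hairpin was checked first. IDH1 stood at 12.6 ± 0.446 FPKM in shIDH1, 34.5 ± 1.56 in shJOSD2 and 44.0 ± 4.44 in control libraries (SD, n = 3 each). JOSD2 stood at 1.69 ± 0.174 FPKM in shIDH1, 0.795 ± 0.101 in shJOSD2 and 6.37 ± 0.260 in control libraries (SD, n = 3 each), and was lower in both hairpin groups than in control (edgeR adjusted p = 7.69e-07 and 1.08e-07). The fall of IDH1 in shIDH1 cells had an edgeR adjusted p of 1.85e-09, and IDH1 was also lower in shJOSD2 cells than in control, by -0.50 ± 0.07 on the fitted log2 scale (edgeR adjusted p = 8.66e-05). The 9 libraries held 66036276 to 71612713 counts each. Of counts of at most 20, 30.2% were multiples of 4, where an even spread gives 25%, and the value 4 occurred 10737 times against 5505 for 3 and 3780 for 5, while 1 and 2 occurred 9771 and 8761 times, so how many counts a fragment gave is not known. The keratins KRT7, KRT8, KRT18 and KRT19 lay between 186 and 599 FPKM in every library, and 9 biliary markers summed to 2020 to 2050 FPKM in shIDH1, 1540 to 1590 in shJOSD2 and 1620 to 1880 in control libraries. Behind all marker counts here, edgeR at an adjusted p of 0.05 called 24.5% of all tested genes higher and 25.6% lower in shIDH1 against control. In shJOSD2 against control these shares were 18.2% and 20.1%. By edgeR, 4 of the 9 biliary markers rose and 2 fell in shIDH1 against control, and 2 rose and 5 fell in shJOSD2 against control. The latter counts were 2 and 2 without scaling factors and 2 and 1 by limma. SPP1 averaged 196 FPKM in shIDH1 and 43.9 in control libraries, KRT7 averaged 198 and 362, and CFTR stayed at 0.0225 to 0.164 FPKM. Control replicate 1 stood apart from the other 2 control libraries in APOA1, an apolipoprotein gene, at 2.91 against 40.05 and 45.55 FPKM. Of 7 fibroblast markers, 5 were tested, of which 4 rose in shIDH1 and 2 in shJOSD2 cells against control. The 7 markers summed to 34.4 to 36.4 FPKM in shIDH1, 32.4 to 33.5 in shJOSD2 and 13.9 to 16.7 in control libraries. Most of this was ACTA2, while LUM was at 0 in 8 and DCN in 7 of 9 libraries. Of 8 hepatocyte markers, 2 rose and 4 fell with each hairpin against control. With only control replicate 1 kept as control, 3 rose in shIDH1 and 2 in shJOSD2 cells and 0 fell by edgeR, so the falls rest on control replicates 2 and 3, and in shJOSD2 cells 2 fell when control replicate 3 or shJOSD2 replicate 3 was left out and 1 fell by limma. The sum of these markers was 92.3 to 97.6 FPKM in shIDH1, 57.3 to 59.2 in shJOSD2 and 38.3 to 84.8 in control libraries. Endothelial markers summed to at most 1.16 FPKM in any library. Nuclear-retained RNAs summed to 37.9 to 38.4 FPKM in shIDH1, 38.6 to 40.3 in shJOSD2 and 21.6 to 30.5 in control libraries. Of 7 leukocyte markers, 6 were tested, of which 1 (CD68) fell with each hairpin and 0 rose by edgeR. The median fitted log2 change of the 6 was -0.22 in shIDH1 and 0.17 in shJOSD2 against control. With only control replicate 1 kept as control, the median of the 7 was 0.47 and 0.99. The 7 markers summed to 26.1 to 29.8 FPKM in shIDH1, 25.4 to 33.6 in shJOSD2 and 32.5 to 40.4 in control libraries. The part of these differences in the results below was not tested.

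On the FPKM scale, which is per transcript length and so allows genes to be compared, FOSL1 was the most abundant of the 10 genes. Its mean over the 9 libraries was 134.1 FPKM, followed by JUN at 50.8, JUND at 29.4, JUNB at 23.4 and FOSL2 at 20.5 FPKM. FOS averaged 1.87 and EGR1 1.45 FPKM. EGR3 at 0.216, FOSB at 0.149 and EGR2 at 0.0923 FPKM were the lowest. FOSL1 stood above 99.5% of all genes of the table by mean FPKM and JUN above 98.2%, whereas FOS stood above 71.2%. In all 9 libraries FOSL1 was above JUN, and JUN was above JUND, JUNB and FOSL2. The ranges of JUNB, JUND and FOSL2 overlapped one another in shIDH1 libraries, and those of JUNB and FOSL2 overlapped in shJOSD2 libraries, so their order there did not exceed the spread. FOS and EGR1 overlapped in shJOSD2 and control libraries, EGR3 and FOSB in shIDH1 and control libraries, and FOSB and EGR2 in both hairpin groups.

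**Figure D1:**
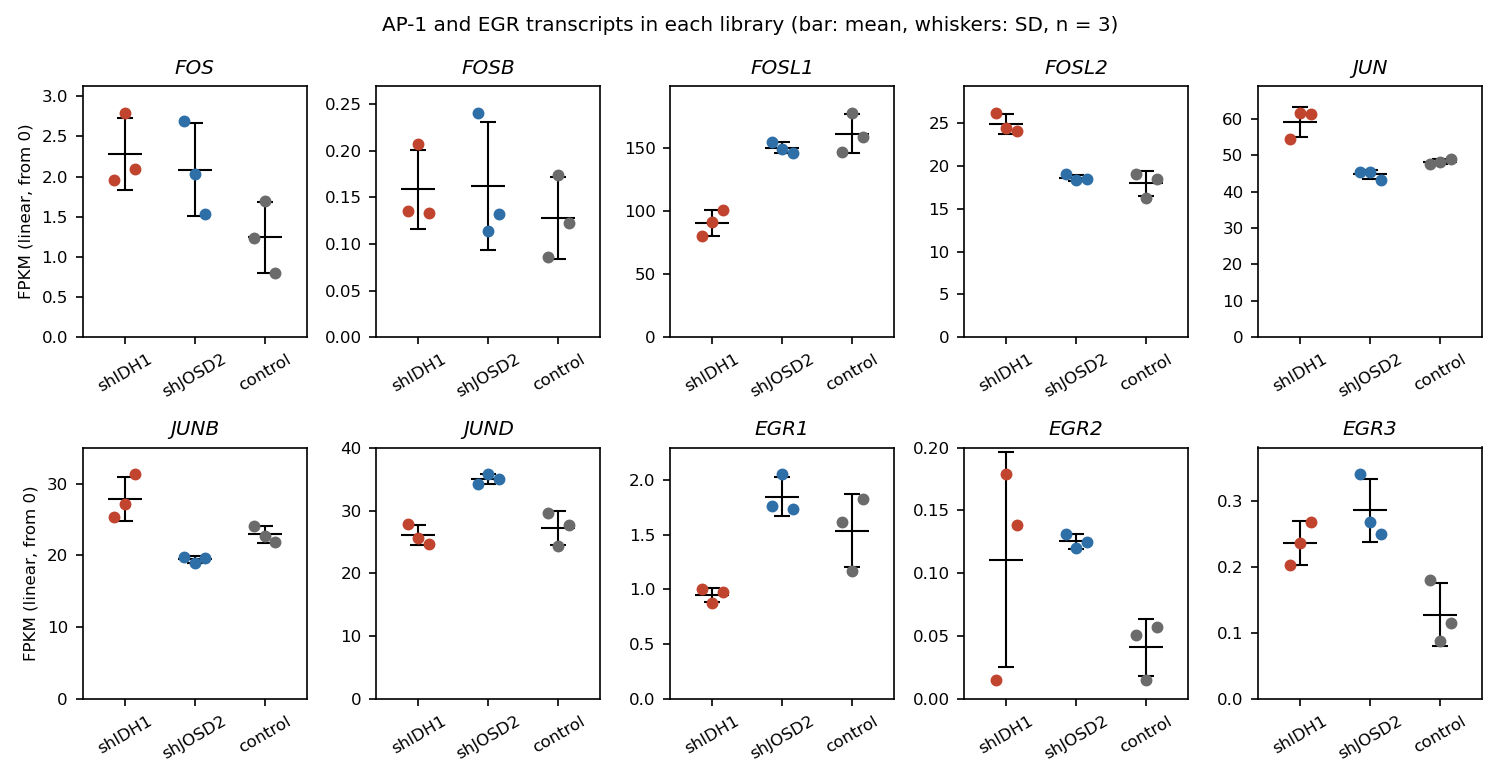
FPKM of the 10 genes in each library, with 1 panel per gene and its own axis starting at 0. Points are libraries of the shIDH1, shJOSD2 and control groups from left to right, and bars are the mean with its SD (n = 3). FOSL1 lies between 80.1 and 100.5 FPKM in shIDH1 libraries and at or above 146 FPKM in all others.

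In shIDH1 cells, set against control, 5 of the 10 genes rose (FOS, FOSL2, JUN, JUNB and EGR3) and 2 fell (FOSL1 and EGR1). Of all tested genes, 24.5% were called higher and 25.6% lower, 50.1% together, by the quasi-likelihood test of edgeR at a Benjamini-Hochberg adjusted p of 0.05. The median fitted log2 change was 0.29 over the 10 genes and 0.01 over all tested genes. In shJOSD2 cells, set against the same control libraries, 2 rose (JUND and EGR3) and 2 fell (JUN and JUNB), where 18.2% of all genes were called higher and 20.1% lower, 38.3% together. The median was 0.14 over the 10 genes and 0.03 over all. Between the hairpins, 3 were higher in shIDH1 than in shJOSD2 cells (FOSL2, JUN and JUNB) and 3 lower (FOSL1, JUND and EGR1), against 20.8% and 24.0% of all genes, 44.8% together, with medians of 0.05 and -0.06. FPKM ranges did not overlap for 7 of the 10 genes in shIDH1 against control, where 56.9% of all tested genes did not overlap, for 5 in shJOSD2 against control (51.7%) and for 6 between the hairpins (58.4%). Shares called among 10 genes near these background shares say nothing particular about the 10. Below, fitted changes are log2 changes of TMM-scaled counts, and they run lower than FPKM ratios wherever shJOSD2 is on top, because TMM factors were 1.07 to 1.08 in shJOSD2 and 0.94 to 0.99 in the other libraries. Without these factors, the median of all genes moved by more than 0.1, to 0.18 in shJOSD2 against control and to -0.21 between the hairpins, and calls in shJOSD2 against control were 65.8% higher in place of 47.4%. In bulk RNA, fewer cells of a kind and less RNA per cell cannot be told apart.

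FOSL1 (FRA-1; chr11:65892049-65900419, minus strand, ENSG00000175592) is the gene that dominated Fos RNA in every library. It stood at 80.1, 91.5 and 100.5 FPKM in shIDH1 libraries, at 154.8, 149.7 and 146 FPKM in shJOSD2 libraries and at 147, 178 and 159 FPKM in control libraries. All shIDH1 libraries lay below all others, and the shJOSD2 and control ranges overlapped. Fitted, FOSL1 changed by -0.83 ± 0.10 (SE) in shIDH1 against control, 1.78-fold lower, with an edgeR adjusted p of 1.69e-05. Against control, shJOSD2 cells were at -0.25 ± 0.10, which was not called (edgeR adjusted p = 0.0620). That missed call was gained with DESeq2 (adjusted p = 0.0204), in a fit of only 2 groups (0.0410) and when control replicate 1 (0.0246), shIDH1 replicate 1 (0.0333) or shIDH1 replicate 3 (0.0459) was left out. Between the hairpins FOSL1 was 1.495-fold lower in shIDH1 than in shJOSD2 cells, at -0.58 ± 0.10 (edgeR adjusted p = 0.000395).

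FOSL2 (FRA-2; chr2:28392448-28417312, plus strand, ENSG00000075426) was the next most abundant Fos gene. It stood at 26.2, 24.4 and 24.2 FPKM in shIDH1 libraries, at 19.1, 18.3 and 18.5 FPKM in shJOSD2 libraries and at 19.1, 16.3 and 18.5 FPKM in control libraries. All shIDH1 libraries lay above all others. FOSL2 changed by 0.47 ± 0.06 in shIDH1 against control, 1.39-fold higher (edgeR adjusted p = 1.98e-05). The change of -0.09 ± 0.06 in shJOSD2 against control was not called (edgeR adjusted p = 0.230), while the FPKM ratio was 1.04, so that its sign depends on the scaling. Between the hairpins FOSL2 was 1.48-fold higher in shIDH1 cells (edgeR adjusted p = 5.57e-06). FOSL2 overlaps the rarely read gene FLJ31356 on the other strand (0.134 FPKM on average).

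FOS (chr14:75278826-75282230, plus strand, ENSG00000170345), the founding member and a strong activator, was low and scattered. It stood at 1.956, 2.79 and 2.09 FPKM in shIDH1 libraries, at 2.69, 2.04 and 1.53 FPKM in shJOSD2 libraries and at 1.23, 1.69 and 0.804 FPKM in control libraries. The shIDH1 values lay above all control values, and shJOSD2 overlapped both other groups. FOS changed by 0.86 ± 0.28 in shIDH1 against control, 1.82-fold higher (edgeR adjusted p = 0.0212). This call ended when control replicate 1 (0.0524), control replicate 3 (0.0735) or shIDH1 replicate 2 (0.0946) was left out, and without the filter on low counts (0.0543). Its change of 0.59 ± 0.28 in shJOSD2 against control was not called (edgeR adjusted p = 0.118), a call that was gained without scaling factors (0.0455) and without control replicate 2 (0.0260).

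FOSB (chr19:45467995-45475179, plus strand, ENSG00000125740), a close relative of FOS, lay between 0.0861 and 0.241 FPKM over the 9 libraries and overlapped between all groups. It was called in 0 of the 3 comparisons by edgeR (adjusted p = 0.605, 0.800 and 0.841). The FOSB locus overlaps ERCC1, a DNA repair gene on the other strand at 7.69 FPKM on average, and because it is unknown whether strand was used in counting, its counts of 37 to 99 may include reads of ERCC1.

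Summed over the family, Fos RNA stood at 118.1 ± 9.28 FPKM in shIDH1, 171.2 ± 5.13 in shJOSD2 and 180.7 ± 14.3 in control libraries (SD, n = 3 each). FOSL1 made up 76.7% ± 2.67 of it in shIDH1, 87.8% ± 0.213 in shJOSD2 and 89.2% ± 1.47 in control libraries (SD, n = 3 each). FOSL2 made up 21.3% ± 2.65 in shIDH1, 10.9% ± 0.194 in shJOSD2 and 10.03% ± 1.58 in control libraries (SD, n = 3 each). The makeup thus differed in shIDH1 libraries, by ranges that did not overlap those of the other groups, and with 3 libraries against 3 an exact permutation test cannot give a two-sided p below 0.1. The summed FPKM values were not scaled by TMM factors.

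**Figure D2:**
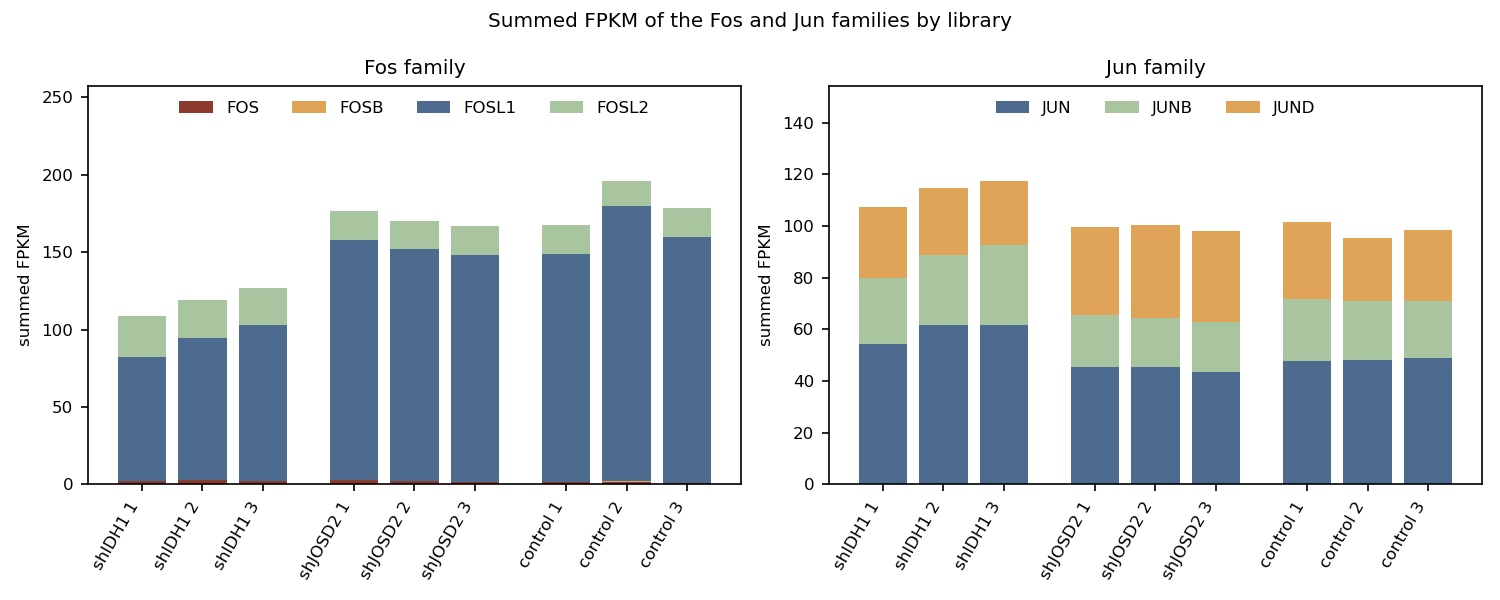
Summed FPKM of the Fos family (left) and the Jun family (right), with 1 stacked bar per library of the shIDH1, shJOSD2 and control groups from left to right, coloured by gene and starting at 0. Fos bars reach 108.4 to 126.9 FPKM in shIDH1 libraries and 167.7 to 196.1 FPKM in control libraries, FOSL1 fills most of each, and the JUND part is larger in the shJOSD2 bars.

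JUN (c-Jun; chr1:58780791-58784047, minus strand, ENSG00000177606), the main partner of Fos proteins, was the most abundant Jun gene in every library. It stood at 54.4, 61.7 and 61.5 FPKM in shIDH1 libraries, at 45.5, 45.6 and 43.4 FPKM in shJOSD2 libraries and at 47.6, 48.2 and 48.9 FPKM in control libraries. The 3 groups did not overlap. JUN changed by 0.29 ± 0.07 in shIDH1 against control, 1.23-fold higher (edgeR adjusted p = 0.00245). The change in shJOSD2 against control was -0.25 ± 0.07, 1.19-fold lower (edgeR adjusted p = 0.00895). The fall in shJOSD2 cells lost its call without scaling factors (adjusted p = 0.225), with limma on FPKM (0.153 and 0.159), without shJOSD2 replicate 3 (0.0586) and with only control replicate 1 kept as control (0.145). Between the hairpins JUN was 1.46-fold higher in shIDH1 cells (edgeR adjusted p = 2.35e-05).

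JUNB (chr19:12791486-12793315, plus strand, ENSG00000171223), which is a weaker activator than JUN and can oppose it, stood at 25.3, 27.2 and 31.3 FPKM in shIDH1 libraries, at 19.8, 19.0 and 19.6 FPKM in shJOSD2 libraries and at 24.2, 22.7 and 21.9 FPKM in control libraries. The shIDH1 libraries were highest and the shJOSD2 libraries lowest, with no overlap. JUNB changed by 0.28 ± 0.09 in shIDH1 against control (edgeR adjusted p = 0.0147), a call that ended without shIDH1 replicate 3 (0.0792) and with only control replicate 1 kept as control (0.152). The shJOSD2 cells differed from control by -0.38 ± 0.09, 1.304-fold lower (edgeR adjusted p = 0.00360). Between the hairpins JUNB was 1.59-fold higher in shIDH1 cells (edgeR adjusted p = 4.05e-05).

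JUND (chr19:18279694-18281622, minus strand, ENSG00000130522) is expressed in many resting cells. It stood at 27.8, 25.7 and 24.7 FPKM in shIDH1 libraries, at 34.3, 35.8 and 35.0 FPKM in shJOSD2 libraries and at 29.6, 24.3 and 27.6 FPKM in control libraries. The shJOSD2 libraries lay above all others, and the shIDH1 and control ranges overlapped. The fitted change was 0.22 ± 0.07 in shJOSD2 against control, 1.16-fold higher (edgeR adjusted p = 0.0214). That call ended without control replicate 2 (0.0742), without shJOSD2 replicate 2 (0.0628) and with only control replicate 1 kept as control (0.304). In shIDH1 against control it was -0.06 ± 0.07 and was not called (edgeR adjusted p = 0.480), and between the hairpins it was 1.22-fold lower in shIDH1 cells (edgeR adjusted p = 0.00427).

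Summed Jun RNA stood at 113.2 ± 5.12 FPKM in shIDH1, 99.3 ± 1.17 in shJOSD2 and 98.4 ± 3.07 in control libraries (SD, n = 3 each). JUND made up 23.1% ± 2.50 of it in shIDH1, 35.3% ± 0.747 in shJOSD2 and 27.6% ± 1.89 in control libraries (SD, n = 3 each). The ratio of summed Fos to summed Jun RNA was 1.04 ± 0.0362 in shIDH1, 1.72 ± 0.0438 in shJOSD2 and 1.84 ± 0.204 in control libraries (SD, n = 3 each). The ratio was below all others in each shIDH1 library. TMM factors, which were 1.07 to 1.08 in shJOSD2 and 0.94 to 0.99 in the other libraries, were not applied to these sums. How summed Jun RNA in shJOSD2 compares with control thus depends on the scaling, while shares and ratios within a library do not.

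EGR1 (chr5:138465479-138469303, plus strand, ENSG00000120738), a factor that responds to growth signals, was the most abundant Egr gene in every library. It stood at 0.9998, 0.877 and 0.977 FPKM in shIDH1 libraries, at 1.77, 2.05 and 1.73 FPKM in shJOSD2 libraries and at 1.61, 1.17 and 1.83 FPKM in control libraries. All shIDH1 libraries lay below all others. The fitted change was -0.69 ± 0.18 in shIDH1 against control, 1.61-fold lower (edgeR adjusted p = 0.00561). In shJOSD2 against control it was 0.12 ± 0.17 and was not called (edgeR adjusted p = 0.630). Between the hairpins EGR1 was 1.76-fold lower in shIDH1 cells (edgeR adjusted p = 0.00219).

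EGR3 (chr8:22687659-22693480, minus strand, ENSG00000179388), a relative of EGR1 that binds the same kind of site, was low. It stood at 0.202, 0.237 and 0.268 FPKM in shIDH1 libraries, at 0.340, 0.267 and 0.249 FPKM in shJOSD2 libraries and at 0.180, 0.0874 and 0.115 FPKM in control libraries. These are counts of 32 to 125. Both hairpin groups lay above the control libraries. The fitted change was 0.88 ± 0.32 in shIDH1 (edgeR adjusted p = 0.0361) and 0.999 ± 0.32 in shJOSD2 against control (edgeR adjusted p = 0.0255). The first call ended without control replicate 2 (0.116) or 3 (0.0873), without shIDH1 replicate 2 (0.0761) or 3 (0.113), without the filter on low counts (0.0616) and in a fit of only 2 groups (0.0624). The second ended without control replicate 2 (0.0835) or 3 (0.0689) and without shJOSD2 replicate 1 (0.0934), and neither held with only control replicate 1 kept as control (0.455 and 0.380).

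EGR2 (chr10:62811996-62919900, minus strand, ENSG00000122877), known from myelinating cells and T cells, lay between 4 and 47 counts per library, or 0.0147 to 0.179 FPKM. Its fitted changes of 1.40 ± 0.79 in shIDH1 and 1.42 ± 0.79 in shJOSD2 against control were not called (edgeR adjusted p = 0.166 and 0.185). The first was gained without shIDH1 replicate 1, which held 4 counts (adjusted p = 0.0241). Summed Egr RNA stood at 1.297 ± 0.0836 FPKM in shIDH1, 2.26 ± 0.168 in shJOSD2 and 1.71 ± 0.382 in control libraries (SD, n = 3 each), again without TMM factors.

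**Figure D3:**
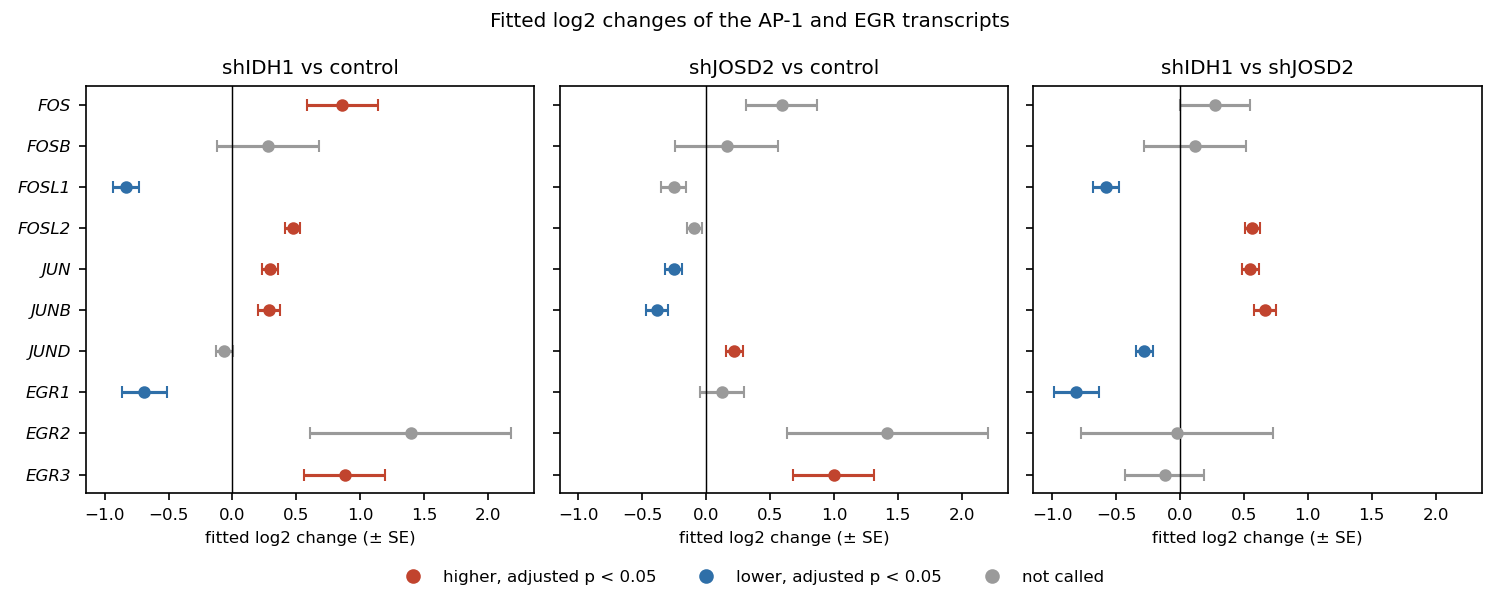
Fitted log2 change of each of the 10 genes with its SE, in shIDH1 against control, shJOSD2 against control and shIDH1 against shJOSD2, from left to right. Red points are genes called higher and blue points genes called lower by the edgeR test, and grey points were not called. FOSL1 lies at -0.83 and FOSL2 at 0.47 in shIDH1 against control, and JUN and JUNB lie above 0 in the first comparison and below 0 in the second.

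The genes whose pattern over the 9 libraries was most like that of FOSL1 were CHCHD4, a mitochondrial import protein, TYRO3, a receptor tyrosine kinase, and SFN (14-3-3 sigma), with root-mean-square differences of 0.0591, 0.0629 and 0.0734 on the centred log2 CPM scale. The median over 12381 genes was 0.450, and 872 genes lay within 0.2. For EGR1 they were DCAF16, ARPIN and ZSWIM3, with differences of 0.0801, 0.108 and 0.113, a median of 0.470 and 286 genes within 0.2. For JUN they were DEDD, BAG6 and PVR at 0.0404, 0.0454 and 0.0471, but JUN spanned only 0.679 log2 units, below the 1 unit that likeness needs, so its neighbours are uninformative.

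Upstream of these factors, of 16 MAP kinases and related kinases, 5 were higher and 8 lower in shIDH1 against control (median -0.22), and 6 higher and 8 lower in shJOSD2 against control (median -0.20), or 3 and 7 with only control replicate 1 kept as control. MAPK3 (ERK1) stood at 5.24 ± 0.421 FPKM in shIDH1 and 14.3 ± 1.36 in control libraries (SD, n = 3 each; fitted change -1.45 ± 0.09, edgeR adjusted p = 6.41e-08). The p38 gene MAPK14 and its activator MAP2K3 fell in shJOSD2 cells, by 1.34 and 1.16 log2 units, and MAP2K6, another p38 activator, rose in shIDH1 cells by 0.96. Between the hairpins, 4 of these genes were higher and 3 lower in shIDH1 cells, or 3 and 9 without scaling factors. As background for this and the following lists, 24.5% of all tested genes were called higher and 25.6% lower in shIDH1 against control. These shares were 18.2% and 20.1% in shJOSD2 against control and 20.8% and 24.0% between the hairpins. With a mean of at least 1 FPKM, 4345 of 12396 genes were higher and 4316 lower in shIDH1 against control. All lists were chosen with earlier results known, and whether any differs from all genes was not tested.

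Of 12 SRF, ternary complex and CREB factors, 5 were higher and 5 lower in shIDH1 against control, or 3 and 4 with only control replicate 1 kept as control. SRF stood at 11.01 ± 0.639 FPKM in shIDH1 and 19.8 ± 1.34 in control libraries (SD, n = 3 each; -0.85 ± 0.07, edgeR adjusted p = 5.50e-07). ELK3, a ternary complex factor, stood at 15.5 ± 2.14 FPKM in shIDH1, 40.6 ± 1.35 in shJOSD2 and 26.2 ± 2.78 in control libraries, with fitted changes of -0.76 ± 0.09 in shIDH1 and 0.48 ± 0.09 in shJOSD2 against control (edgeR adjusted p = 1.07e-05 and 0.000705). ELK1 fell in shJOSD2 cells by 1.22 log2 units, and MEF2D rose in shIDH1 cells by 0.82. MRTFB, a coactivator of SRF, rose in shJOSD2 cells by 0.41, which was not called with only control replicate 1 kept as control (adjusted p = 0.0541). In shJOSD2 against control 2 of the 12 were higher and 3 lower, or 4 and 1 without scaling factors and 1 and 2 with only control replicate 1 kept as control. Between the hairpins 5 were higher and 3 lower in shIDH1 cells, or 3 and 4 without scaling factors. Over all tested genes, 24.5% were higher and 25.6% lower in shIDH1, and 18.2% and 20.1% in shJOSD2 against control.

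Of 11 tested partner leucine zipper factors, 6 rose and 1 fell in shIDH1 against control (median 0.57), while 2 rose and 5 fell in shJOSD2 against control (median -0.22). In shJOSD2 cells 2 rose and 3 fell without scaling factors (median -0.07), by limma, and when control replicate 3 or shJOSD2 replicate 1 was left out, and 1 rose and 4 fell without shJOSD2 replicate 2. ATF3, a stress-induced factor that pairs with JUN, stood at 22.5 ± 5.34 FPKM in shIDH1, 4.34 ± 0.615 in shJOSD2 and 5.74 ± 1.24 in control libraries (SD, n = 3 each), a fitted change of 1.98 ± 0.19 in shIDH1 against control (edgeR adjusted p = 2.38e-06). Its change of -0.55 ± 0.19 in shJOSD2 against control (edgeR adjusted p = 0.0362) did not hold when control replicate 1 or 3 or any 1 shJOSD2 library was left out (0.0510 to 0.164), nor without scaling factors (0.119). MAFK, a small Maf protein, rose 2.32-fold in shIDH1 cells. JDP2, a Jun dimerization protein that represses AP-1, stood at 4.44 ± 0.450 FPKM in shIDH1, 1.45 ± 0.134 in shJOSD2 and 2.64 ± 0.233 in control libraries, with fitted changes of 0.75 ± 0.11 and -1.01 ± 0.12 (edgeR adjusted p = 0.00012 and 2.38e-05). CREB5 rose in shJOSD2 cells by 0.79. Between the hairpins 6 were higher and 1 lower in shIDH1 cells, or 5 and 2 without scaling factors. Over all tested genes, 24.5% were higher and 25.6% lower in shIDH1, and 18.2% and 20.1% in shJOSD2 against control.

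The EGR corepressor NAB1 fell in shIDH1 cells and rose in shJOSD2 cells, at 2.76 ± 0.249 FPKM in shIDH1, 7.83 ± 0.298 in shJOSD2 and 4.35 ± 0.164 in control libraries (SD, n = 3 each; -0.66 ± 0.08 and 0.70 ± 0.08, edgeR adjusted p = 2.11e-05 and 2.51e-05). NAB2, itself an EGR1 target, fell in shIDH1 cells by 0.54 (edgeR adjusted p = 0.00115, but 0.05003 with only control replicate 1 kept as control). SP1, which binds GC-rich sites that EGR1 can share, rose in shIDH1 cells by 0.42. Of the 5 genes of this group 1 rose and 2 fell in shIDH1, and 1 rose and 0 fell in shJOSD2 against control by edgeR. Of 5 ubiquitin ligase genes known to act on JUN and FOS, FBXW7 rose in shIDH1 cells by 0.82, KDM2B fell by 0.84, and in shJOSD2 cells FBXW7 was at 0.23 ± 0.09 (edgeR adjusted p = 0.0472). Where that call was lost its adjusted p lay between 0.0561 and 0.330, as it did with each library other than control replicate 1 and shJOSD2 replicate 1 left out.

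Among 28 other immediate early genes, 20 rose and 5 fell in shIDH1 against control, with a median of 0.54 where all genes stood at 0.01. The shares of all tested genes called in this comparison were 24.5% higher and 25.6% lower, and the list was chosen with earlier results known. CCN2 (CTGF), a secreted matricellular protein and a well-known YAP target, stood at 398 ± 33.7 FPKM in shIDH1, 74.0 ± 5.21 in shJOSD2 and 53.0 ± 8.56 in control libraries (SD, n = 3 each), a fitted change of 2.91 ± 0.10 in shIDH1 against control (edgeR adjusted p = 9.92e-10). DUSP1, a phosphatase that shuts off MAP kinases, rose 3.42-fold, and PPP1R15A (GADD34), a stress-response phosphatase subunit, rose 3.25-fold. In shJOSD2 against control 6 rose and 13 fell (median -0.12), or 9 and 4 without scaling factors (median 0.04), so the direction of this group depends on the scaling. Only 8 fell there without shJOSD2 replicate 3, and likewise 8, with 4 higher, where control replicate 1 was the sole control library. IER3 fell there by 0.65, BTG2 rose by 0.69, and KLF2 fell by 0.76, which was not called with only control replicate 1 kept as control (adjusted p = 0.148). Between the hairpins 19 were higher in shIDH1 cells and 4 lower, CCN2, GADD45B and RHOB showing the largest changes among genes of at least 1 FPKM.

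**Figure D4:**
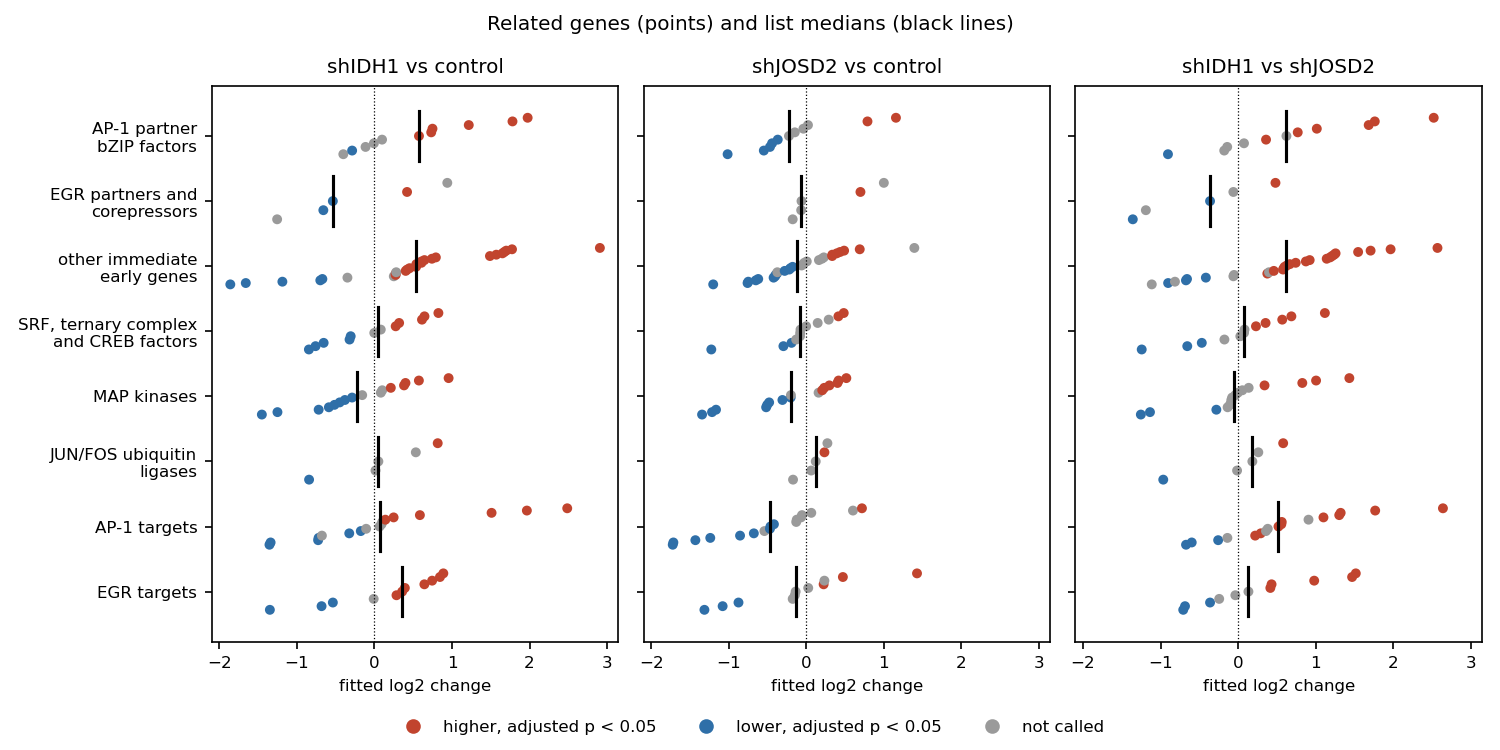
Fitted log2 changes of the tested genes of each related list in shIDH1 against control, shJOSD2 against control and shIDH1 against shJOSD2, with 1 point per gene (red called higher, blue called lower, grey not called; height within a list only separates points) and a black line at the median. The other immediate early genes have medians of 0.54, -0.12 and 0.61, and the AP-1 target genes 0.07, -0.46 and 0.52.

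Of 21 genes known as AP-1 targets, 17 were tested, since IL6, IVL, MMP3 and MMP13 had too few counts. In shIDH1 against control 6 rose and 6 fell (median 0.07). Leaving out 1 library gave 4 to 7 higher, 3 to 6 lower and medians of -0.09 to 0.14, with 7 and 4 without control replicate 2, 5 and 3 without control replicate 3 and 4 and 4 without shIDH1 replicate 2, so this list has no settled direction. HBEGF, an EGF receptor ligand, rose 3.91-fold, and the chemokine CCL2 fell 2.53-fold, in shIDH1 cells. In shJOSD2 against control 1 rose and 9 fell (median -0.46). CCND1 (cyclin D1) stood at 92.1 ± 0.783 FPKM in shJOSD2 and 224 ± 17.9 in control libraries (SD, n = 3 each; -1.43 ± 0.07, edgeR adjusted p = 4.61e-08). CXCL8 (interleukin 8) fell there by 1.24 and CCL2 by 1.72. Between the hairpins 10 were higher in shIDH1 cells and 3 lower. Without scaling factors the shJOSD2 counts were 2 and 9. Over all tested genes, 24.5% were higher and 25.6% lower in shIDH1, and 18.2% and 20.1% in shJOSD2 against control.

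Of 11 EGR target genes, 7 rose and 3 fell in shIDH1 against control (median 0.36), and 3 rose and 3 fell in shJOSD2 against control. Over all tested genes, 24.5% were higher and 25.6% lower in shIDH1, and 18.2% and 20.1% in shJOSD2 against control. ID3, an inhibitor of basic helix-loop-helix factors, fell with both hairpins, at 6.64 ± 0.946 FPKM in shIDH1, 7.53 ± 1.43 in shJOSD2 and 16.8 ± 3.88 in control libraries (SD, n = 3 each; edgeR adjusted p = 5.33e-05 and 0.000122). THBS1 (thrombospondin-1) rose by 0.84 in shIDH1 cells. Between the hairpins 5 were higher in shIDH1 cells and 3 lower (median 0.13), or 5 and 4 without scaling factors (median -0.02). PDGFA fell by 1.08 and ALOX5 rose by 1.43 in shJOSD2 cells. Since the comparisons share control libraries, their counts are not independent.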

How the data were processed

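Poly(A) RNA was sequenced as stranded pairs with unique molecular identifiers in 9 libraries, 3 per group, per the labels' protocols. The submitters' processing notes name the build GRCh38 and the tools StringTie 1.3.4d, UMI-tools, HISAT2 2.0.4 and cutadapt 1.9. What each tool did, which annotation was used and how reads were assigned to genes and strands is not given in the sources used here. The deposited counts are whole numbers that were not normalized, and the deposited FPKM values are scaled by length and library size, per the file headers. Multiples of 4 are over-represented among low counts, so counting error may be larger than the counts imply; this is an inference from the values. With counts divided by 4, libraries of the same group still differed with a chi-square per degree of freedom of 3.63 to 10.1. Sampling noise alone would give about 1 if each fragment gave 4 counts, which is not known. These values cannot show whether the libraries of a group stem from separate cultures, and all were kept as separate replicates.

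All 9 libraries entered 1 edgeR 4.0.16 fit in R 4.3.3 (group means, filterByExpr, TMM, quasi-likelihood F-test, Benjamini-Hochberg over 21492 genes, threshold 0.05). The fit was also run on simulated counts. Far fewer genes changed there and counts did not gather at multiples of 4, so error rates in these data were not tested. The SE was taken as the absolute log2 change divided by the root of F. Means and SDs of FPKM are over 3 libraries. Alternatives were other scalings, DESeq2 1.42.0, limma 3.58.1 on log2(FPKM + 1) and log2(FPKM + 0.1), other filters, counts divided by 4, a replicate block, 2 groups only, each library left out, and only control replicate 1 kept as control.

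The 10 genes and all lists were chosen with earlier results of these data known. Named genes are the 10, IDH1, JOSD2, up to 3 called genes per list and comparison with the largest change and a mean of at least 1 FPKM, and the 3 genes most like the most abundant member of each family; a few that this rule selects are not reported here. APOA1 and other markers were named for the checks of cell identity. Figures were drawn with matplotlib 3.10.9.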

Additional observations from a re-analysis of the deposited data

How the results depend on the processing

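Over 20 alternatives, 588 values for the 10 genes gave 555 with the same call, 25 with a lost call and 8 with a gained one. No called change turned its direction, while 18 uncalled values changed sign, for FOSL2 and EGR1 in shJOSD2 against control, FOSB, and EGR2 and EGR3 between the hairpins. FOSL1, FOSL2, JUN and EGR1 in shIDH1 against control, JUNB in shJOSD2 against control and all calls between the hairpins held in all alternatives run. The number called higher in shIDH1 against control was 3 without the filter on low counts and 3 with only control replicate 1 kept as control. The number higher in shJOSD2 against control was 1 with a mean of at least 1 FPKM, which drops EGR3, and 0 with that lone library. The number lower in shJOSD2 was 1 without scaling factors, 1 with limma at either pseudocount and 1 with that lone library. Leaving out 1 library gave 3 to 6 higher and 2 to 2 lower in shIDH1, 1 to 2 higher and 1 to 3 lower in shJOSD2, and 3 to 3 in each direction between the hairpins. All genes called then ranged over 9724 to 10635, 6939 to 8248 and 8430 to 9927. With that lone library, whose variance was assumed to be that of the other groups, APOA1 reversed to 0.076 in shIDH1 and 0.4541 in shJOSD2 against control; its main change rests on control replicates 2 and 3.

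Same-numbered libraries did not deviate together (correlations -0.018 to 0.038), and not every library matched its own number best. With 3 libraries per group this cannot show whether same-numbered libraries were handled together, and the labels do not say. The main fit treated the libraries as unpaired. With a replicate block, 10416, 7823 and 9296 genes were called in the 3 comparisons, and no count for the 10 genes moved. Counts of at most 125 per library limit FOSB, EGR2 and EGR3.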
